A study of Homo sapiens with 6 samples.

Results

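Transcripts of 8 glycolytic enzymes were measured in the human neuroblastoma cell line BE(2)-C. For 2 days the cells were kept with DMSO, the solvent control, or with NCT-503 at 10 µM. This compound inhibits phosphoglycerate dehydrogenase (PHGDH), the entry enzyme of serine synthesis. The genes were the hexokinases HK1 and HK2 and the later enzymes GPI, TPI1, GAPDH, PGK1, LDHA and LDHB. They were chosen by gene symbol, and each of the 8 had 1 row among the 14779 named genes tested. Each group held 3 samples, labelled a, b and c and described as independent, with 1 single-colour Affymetrix whole-transcript array per sample. Both groups were the same line in the same serum-containing medium, and the labels name no genetic change. A line is a single model of the tumour, and the labels do not state that the samples came from separate cultures; p-values here therefore reflect only how these samples scatter, which may be technical.

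Glycolysis turns glucose into pyruvate, and hexokinases open it by phosphorylating glucose, which traps the sugar in the cell. HK1 is the widely expressed form, whereas HK2 is the form often raised in tumours and under low oxygen. Further down, PGK1 makes the 3-phosphoglycerate that PHGDH withdraws for serine synthesis, and lactate dehydrogenase interconverts pyruvate and lactate at the end of the pathway.

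Treatment moved the hexokinases in opposite directions, while 0 of the 6 later enzymes passed limma's test, also at an unadjusted p under 0.05. With NCT-503, HK1 was 1.34-fold higher, and HK2 fell by 0.40 on the log2 scale, to 0.757 of its DMSO value. Changes of the later enzymes lay between -0.15 (GPI) and 0.03 (LDHA). Values are deposited log2 values, a change is the NCT-503 mean less the DMSO mean, given with its standard error (SE) from limma, and a gene was called at a Benjamini-Hochberg adjusted p under 0.05 over the 14779 genes. One of the 8 genes was called higher, where 16.4% of all genes tested were, and 1 was called lower, where 17.1% were. The share of called genes among the 8, 2 of 8, was thus near the 33.5% over all genes. At an unadjusted p under 0.05 in limma, 3427 of the 14779 genes were higher and 3047 lower.

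In the DMSO arrays a, b and c, HK1 read 7.16, 7.22 and 7.07. In the NCT-503 arrays it read 7.71, 7.55 and 7.46. Every treated array lay above every DMSO array, and NCT-503 a was highest. The means were 7.15 ± 0.07 and 7.57 ± 0.13 (SD, n = 3 each), and the change of 0.43 ± 0.09 (SE) was called by limma (adjusted p = 0.0108). Its 95% interval ran from 0.21 to 0.64. Of all genes tested, 24.9% had a larger absolute change than HK1.

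HK2 read 6.56, 6.85 and 6.63 in DMSO a, b and c. It read 6.25, 6.37 and 6.22 in the treated arrays. All treated arrays lay below all DMSO arrays, and DMSO b stood highest. The means were 6.68 ± 0.15 and 6.28 ± 0.08 (SD, n = 3 each), with a change of -0.40 ± 0.10 (SE, limma adjusted p = 0.0178) and a 95% interval from -0.63 to -0.17. HK2 no longer passed when array NCT-503 a was left out (adjusted p = 0.0526) or when NCT-503 c was (0.0534). Its adjusted p ran from 0.00348 to 0.0534 over the 18 alternatives. Of the other hexokinases, HK3 (0.17 ± 0.10) and HKDC1 (0.24 ± 0.12) did not pass the test, with adjusted p-values of 0.219 and 0.170. Their DMSO means, 3.43 and 2.61, lay below the array medians of 4.30 to 4.33, so these rows say little about either transcript.

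**Figure D1:**
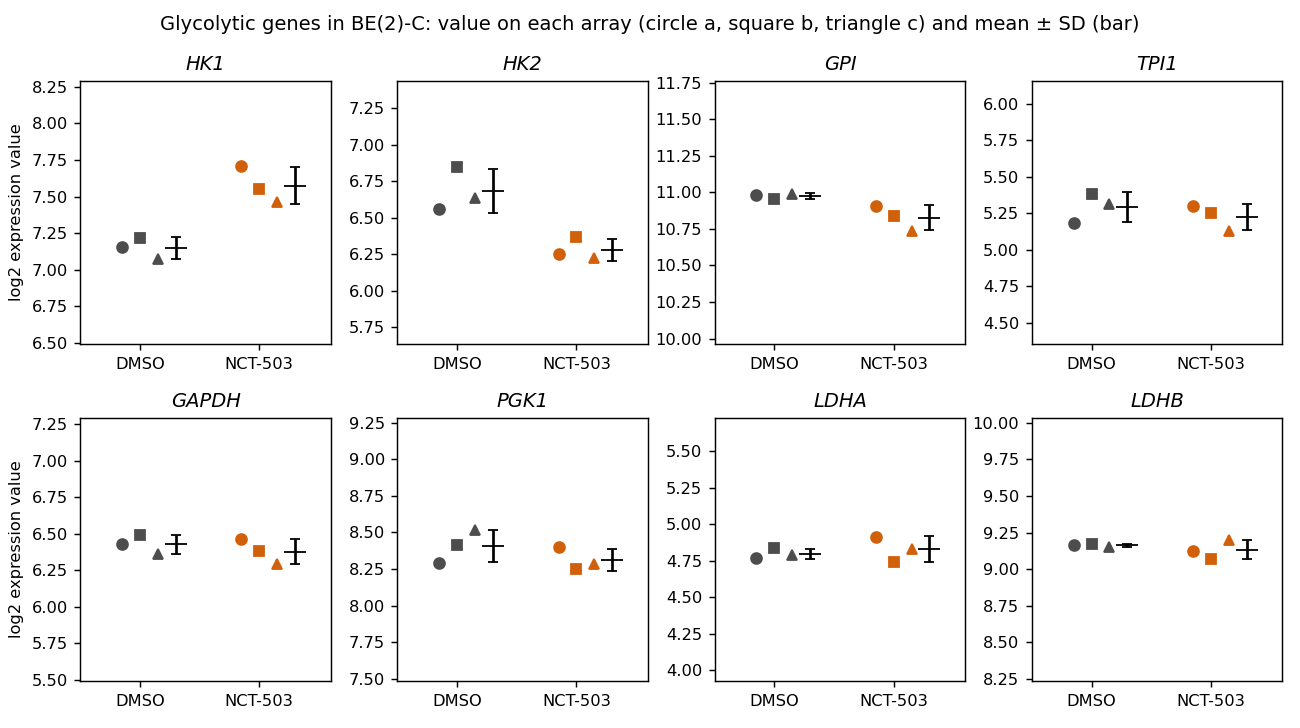
Deposited log2 value (y axis, the same span of log2 units in each panel) of the 8 genes on each of 3 DMSO (grey) and 3 NCT-503 (orange) arrays, with the mean ± SD as a bar. HK1 means rose from 7.15 to 7.57 and HK2 means fell from 6.68 to 6.28, without overlap of the groups, and the GPI groups also lay apart, while the other 5 genes overlapped.

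The difference between the hexokinase changes was measured by subtracting HK2 from HK1 within each array, which removes any shift common to the array. The subtraction gave 0.59, 0.37 and 0.44 in DMSO a, b and c. It gave 1.46, 1.18 and 1.24 in NCT-503 a, b and c. The group means were 0.47 ± 0.11 and 1.29 ± 0.15 (SD, n = 3 each). That the groups did not overlap is no further result, because HK1 and HK2 each separated them, in opposite directions. Treatment thus moved HK1 relative to HK2 by 0.83 ± 0.11 (SE from the arrays' spread), a 1.77-fold shift. An exact two-sided permutation test over the arrays gave p = 0.1, the smallest p that 3 against 3 arrays allow. The same separation fixed this p in advance, so it adds no support. The level of the subtraction itself has no meaning, because probes of different genes are not on 1 scale. Without any single array the shift lay between 0.74 and 0.89.

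**Figure D2:**
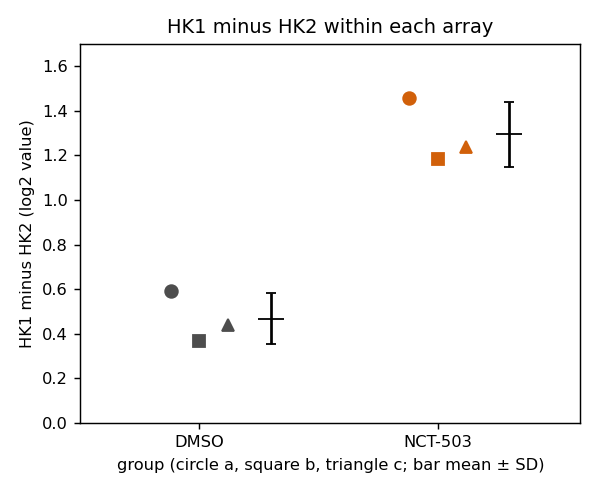
HK1 minus HK2 (y axis, log2 value) within each array for 3 DMSO (grey) and 3 NCT-503 (orange) arrays, with the mean ± SD as a bar. The DMSO arrays lay between 0.37 and 0.59 and the treated arrays between 1.18 and 1.46.

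Start-site sequences of the 8 genes were read as well. RefSeq windows of 250 bases before to 50 after each annotated start (GRCh38.p14) were found for all 8 genes, 17 windows in all. They were searched on both strands for CACGTG, the E-box bound by MYC-family factors, for ACGTG, the core of the hypoxia response element, which every CACGTG also holds, and for TGATGNAA, the core of the amino acid response element. CACGTG was in 7.26% of all 35116 windows, ACGTG in 21.4% and TGATGNAA in 3.62%. Counted by gene, 8.77%, 24.9% and 4.46% of 27305 genes held them in at least 1 window. HK2 held 2 CACGTG copies in 1 of its 2 windows, LDHA held 2 in 1 of its 2, and GAPDH held 1. The 7 windows of HK1 held neither CACGTG nor ACGTG, and 2 of them, which overlap, held the same single TGATGNAA match. CACGTG thus occurred beside HK2, which fell, and beside LDHA and GAPDH, which were not called. HK1, which rose, held none in its windows. Whether the motifs have a part in the changes was not tested. The CACGTG and TGATGNAA matches are printed below. Each line gives 30 bases of the gene's strand, the plus strand in every case, with the motif in capitals. The HK1 match reads TGATGNAA on the opposite strand.
HK1, 45 bases upstream of its first annotated start, chr10:69269944-69269973: tgactaattgaTTGCATCAtagaatccttg
HK2, 194 bases upstream of its second annotated start, chr2:74834964-74834993: gattgctgcgccCACGTGggagggagcccc
HK2, 149 bases upstream of the same start, chr2:74835009-74835038: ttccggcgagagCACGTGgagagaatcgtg
GAPDH, 81 bases upstream of its start, chr12:6535171-6535200: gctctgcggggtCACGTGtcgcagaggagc
LDHA, 185 bases upstream of its first annotated start, chr11:18394366-18394395: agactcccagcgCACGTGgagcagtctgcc
LDHA, 87 bases upstream of the same start, chr11:18394464-18394493: cagcccgactcaCACGTGggttcccgcacg

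GPI, TPI1 and PGK1 held ACGTG without a full CACGTG, and LDHB held none of the 3 motifs. A match describes letters in the window, and binding was not measured here. Which of the annotated starts these cells use was not measured either.

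GPI, glucose-6-phosphate isomerase, turns the hexokinase product into fructose 6-phosphate. It read 10.98, 10.96 and 10.99 in the DMSO arrays. With NCT-503 it read 10.90, 10.84 and 10.73. The treated arrays all lay lower, with NCT-503 c lowest, and the DMSO arrays differed by only 0.02 (SD). The change of -0.15 ± 0.08 (SE, 95% interval -0.33 to 0.03) was not called (limma adjusted p = 0.180). The GPI call, like that of HK2, turned on the settings: GPI was called lower with a variance trend (adjusted p = 0.0170), with trend and robust settings (0.0163) and on quantile-normalised arrays (change -0.30, adjusted p = 0.0167). Centring the arrays moved the other way, to changes of -0.11 (median) and -0.080 (75th percentile), and its adjusted p ran up to 0.412 over the alternatives. Groups did not overlap in 3 of the 8 genes, beside 47.9% of all genes. One of these, HK1, was higher throughout, beside 25.4% of all genes, and HK2 and GPI were lower, beside 22.4%.

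TPI1, triose-phosphate isomerase, interconverts the triose phosphates made when the sugar is split. TPI1 read 5.19, 5.38 and 5.31 in DMSO a, b and c and 5.30, 5.25 and 5.13 in NCT-503 a, b and c. The groups overlapped, and the change was -0.07 ± 0.09 (SE, limma adjusted p = 0.591). GAPDH, which makes the first NADH of the pathway and often serves as a reference gene, read 6.43, 6.49 and 6.36 in DMSO. GAPDH read 6.46, 6.38 and 6.29 with NCT-503, again overlapping, for a change of -0.05 ± 0.08 (adjusted p = 0.663). For both genes the sign of the change turned when arrays were centred on their 75th percentile (0.00076 and 0.017) or quantile-normalised (0.015 and 0.040), so no direction can be given.

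PGK1, phosphoglycerate kinase, makes the substrate of PHGDH. Its values were 8.29, 8.41 and 8.52 in the DMSO arrays and 8.40, 8.25 and 8.28 in the treated arrays. The ranges overlapped, with DMSO c highest, and the change was -0.10 ± 0.09 (SE, limma adjusted p = 0.446). The 95% interval of PGK1 ran from -0.31 to 0.11, so a fall to below 0.809 of the DMSO value or a rise above 1.08-fold lay outside it.

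LDHA and LDHB encode the subunits of the lactate dehydrogenase tetramer. LDHA read 4.77, 4.84 and 4.79 in DMSO and 4.91, 4.74 and 4.83 with NCT-503, where the treated arrays spanned the DMSO range on both sides. LDHB read 9.17, 9.17 and 9.15 in DMSO and 9.13, 9.07 and 9.20 with NCT-503, again on both sides. Their changes were 0.03 ± 0.08 and -0.03 ± 0.07 (SE, limma adjusted p = 0.784 and 0.782). Without NCT-503 a the LDHA change was -0.011, and the LDHB change turned above 0 without NCT-503 b (0.00040) and under centring on the array median (0.012) or 75th percentile (0.039), so neither has a settled sign. Over the 6 later enzymes, the 95% interval reaching furthest from 0, that of GPI, stopped at a 1.26-fold difference on the deposited scale. Whether the hexokinase changes differ from those of the later enzymes was not tested.

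**Figure D3:**
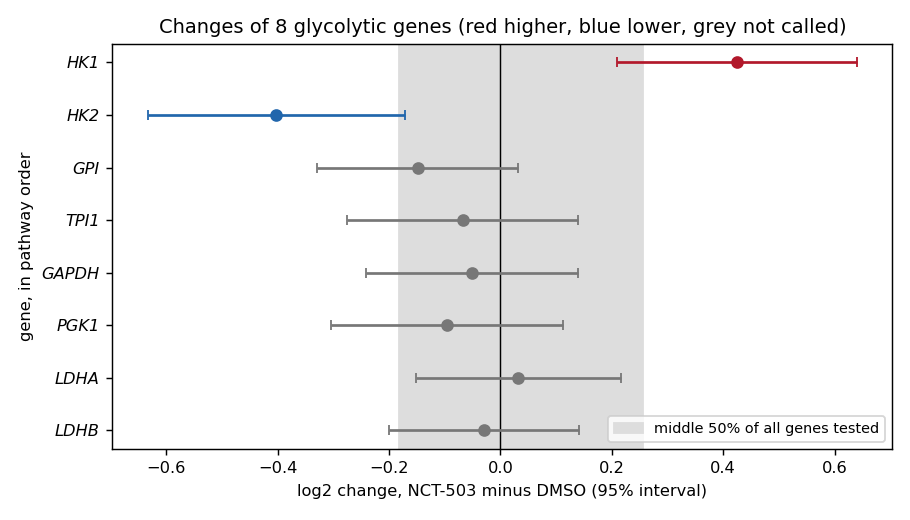
Log2 change, NCT-503 minus DMSO (x axis), with its 95% interval for the 8 genes in pathway order (y axis), over the middle 50% of changes of all 14779 genes (grey band, -0.18 to 0.26). HK1 at 0.43 and HK2 at -0.40 lie outside the band on opposite sides, and the 6 later enzymes lie inside it.

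The median absolute change was 0.06 over the 6 later enzymes and 0.23 over all genes tested. Probe rows limit how far this reaches. GAPDH (mean 6.40), TPI1 (5.26) and LDHA (4.81) had low values for transcripts that are usually abundant in cultured cells, TPI1 and LDHA close to the array medians of 4.30 to 4.33. Which probes these rows rest on is not known here, and a fold can be understated at low signal, so small changes of these genes say little about their transcripts. The reference table names 65 GAPDH pseudogenes, 6 of LDHA, 4 of TPI1, 3 of LDHB, 2 of PGK1 and 1 of HK2, and whether the probes separate the genes from these copies was not tested.

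**Figure D4:**
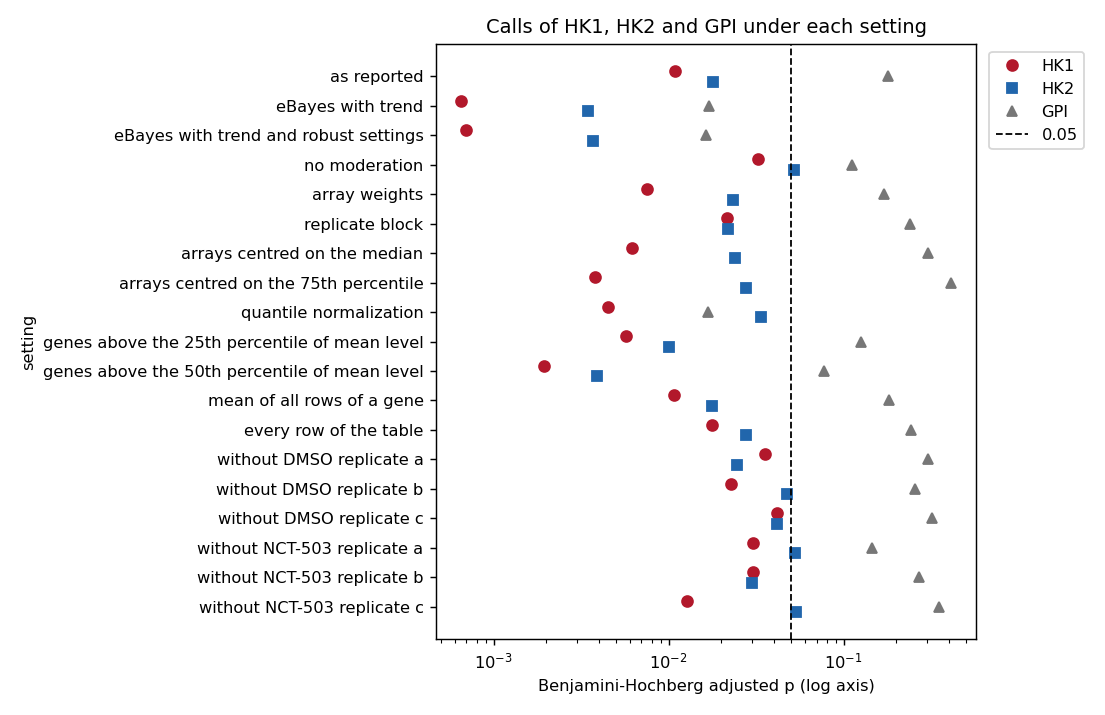
Benjamini-Hochberg adjusted p (x axis, log scale) of HK1 (red circles), HK2 (blue squares) and GPI (grey triangles) as reported and under 18 other settings (y axis), with the threshold of 0.05 dashed. HK1 stayed below it in every setting shown (highest 0.0418), HK2 crossed it in 3, up to 0.0534, and GPI fell below it in 3.

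Profiles over the 6 arrays, each centred on its own mean, were nearest to HK1 in TIMM44 (root mean square difference 0.02), RNF167 (0.02) and KAT2A (0.03). TIMM44 is part of the mitochondrial protein import motor, RNF167 is a ubiquitin ligase and KAT2A is a histone acetyltransferase. Nearest to HK2 were TIMM8B, a chaperone of mitochondrial import (0.04), SNRNP40, a spliceosome protein (0.04), and UBE3D, a ubiquitin ligase (0.04). These genes were picked for their likeness, which is a description over 6 arrays.

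Other glycolytic enzymes and isozymes had 11 of 28 listed genes on the table, and PFK, aldolase, PKM and the main enolases were not analysed here. PGAM2, the muscle-type phosphoglycerate mutase, rose by 0.55 ± 0.11, and MINPP1, a phosphatase that also acts on 2,3-bisphosphoglycerate, fell by 0.56 ± 0.13 (limma adjusted p = 0.00914 and 0.0134). The other 9 did not pass, and the median change of the list was 0.14, beside 0.06 over all genes. The 1 rise and 1 fall were 9.09% of the list each, beside 16.4% and 17.1% over all genes. Only 5 of the 11 lay above the 25th percentile of mean level, with a median change of 0.10. Of the transport genes, BSG and EMB were measured, both partner proteins of lactate carriers. BSG rose by 0.44 ± 0.09 (adjusted p = 0.00682), and the change of EMB was -0.01. The EMB row lay far below the array medians (DMSO mean 1.73), so it says little about that transcript.

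In the list of other uses of hexose phosphates, branches that join the early steps of glycolysis, 6 of 9 measured genes rose and 0 fell by limma. The median change of the list was 0.37. Over all genes, 16.4% rose and 17.1% fell. At an unadjusted p under 0.05, 0 of the list fell, where 3047 of all 14779 genes did. The rises numbered 4 without NCT-503 a or without NCT-503 b, where 1927 and 1888 of all genes rose. GFPT1, which opens hexosamine synthesis, rose 1.65-fold (0.72 ± 0.07, limma adjusted p = 0.000353), UGP2, which makes UDP-glucose, 1.62-fold, GNPDA2 1.35-fold and GYS1, glycogen synthase, 1.32-fold. In the pentose phosphate pathway, which makes NADPH and ribose, 4 of 11 rose and 0 fell, beside the same 16.4% and 17.1%, with a median change of 0.27. The 4 were TKT (1.67-fold), PGLS (1.48-fold), PGD (1.44-fold) and TALDO1 (1.21-fold). With a variance trend 1 gene of this list fell, where 2823 of all genes did. The same count held with trend and robust settings (2816 of all genes) and without moderation (2097). At an unadjusted p under 0.05 by limma, 6 of the 11 rose and 0 fell, where 3427 and 3047 of all 14779 genes did. This threshold added TKTL1 and TKTL2. Their DMSO means, 3.46 and 1.91, lay below the array medians of 4.30 to 4.33, so these rows say little about either transcript. GYS1 failed to pass when DMSO a, NCT-503 a or b was left out (adjusted p from 0.0542 to 0.0609), and the TALDO1 call without any array but NCT-503 c (0.0593 to 0.103). Whether these shares differ from that of the 8 genes was not tested.

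Pyruvate entry into mitochondria had 3 rises and 1 fall among 9 genes, with a median of 0.18, where 16.4% of all genes rose and 17.1% fell. There was 1 rise when DMSO b was left out, and there were 5 with a variance trend, where 2006 and 2654 of all genes rose. MPC2, a subunit of the pyruvate carrier, rose by 0.43 ± 0.08 (limma adjusted p = 0.00450), PDHA1, of pyruvate dehydrogenase, by 0.31 ± 0.07, and PDP1, the phosphatase that activates that complex, by 0.39 ± 0.10. PDPR, the regulatory subunit of that phosphatase, fell by 0.62 ± 0.11. PDHA1 failed to pass when array b of either group was left out (adjusted p 0.0502 and 0.0507), and PDP1 when DMSO a, DMSO b or NCT-503 a was (0.0537 to 0.0762). Among gluconeogenesis and NADH shuttle genes, PCK2, mitochondrial PEP carboxykinase, rose 1.95-fold (0.96 ± 0.11, adjusted p = 0.000590) and GPD1L rose by 0.41 ± 0.12, of 5 measured. These 2 rises, with 0 falls, stood beside 16.4% and 17.1% over all genes. GPD1L failed to pass when any array but DMSO b and NCT-503 c was left out (0.0664 to 0.0989), and PCK1 (0.22), GPD1 (0.14) and GPD2 (-0.09) did not pass. The DMSO means of PCK1 (2.97) and GPD1 (3.18) lay below the array medians of 4.30 to 4.33, so these rows say little.

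Of 15 measured glycolysis regulators, 3 rose and 5 fell, with a median of -0.21. These counts stand beside 16.4% higher and 17.1% lower over all genes. With a variance trend 4 rose and 7 fell, where 2654 and 2823 of all genes did. Under 75th percentile centring 4 rose and 3 fell, where 3345 and 2189 of all genes did. The falls also numbered 3 when any array but DMSO a and NCT-503 c was left out, and EGLN1, an oxygen-sensing hydroxylase (-0.33), failed to pass in those 4 cases (adjusted p from 0.0702 to 0.0748). EPAS1, the hypoxia factor HIF-2 alpha, fell from 6.67 ± 0.13 to 5.01 ± 0.08 (SD, n = 3 each), a change of -1.66 ± 0.09 (SE, limma adjusted p = 4.70e-05). TIGAR, a bisphosphatase that lowers glycolytic flux, fell by 1.05 ± 0.15, whereas ARNT, the partner of the hypoxia factors, rose by 0.57 ± 0.07. VDAC2, one of the outer-membrane channels of the family on which hexokinases dock at mitochondria, rose by 0.53 ± 0.10. The other channels were VDAC1 (-0.02, not called) and VDAC3, which was called lower (-0.25, adjusted p = 0.0380). VDAC3 lost its call when any 1 array was left out (0.0606 to 0.112) and under centring on the array median or 75th percentile. MYCN and HIF1A were not analysed here.

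At the branch point fed by PGK1, PHGDH rose by 0.97 ± 0.09, PSAT1 by 0.73 ± 0.07 and PSPH by 0.25 ± 0.08 (limma adjusted p = 0.000299, 0.000402 and 0.0469). The PSPH call was lost when any 1 array was left out (0.0748 to 0.142). PGK1, with a change of -0.10, was not called on the same arrays.

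**Figure D5:**
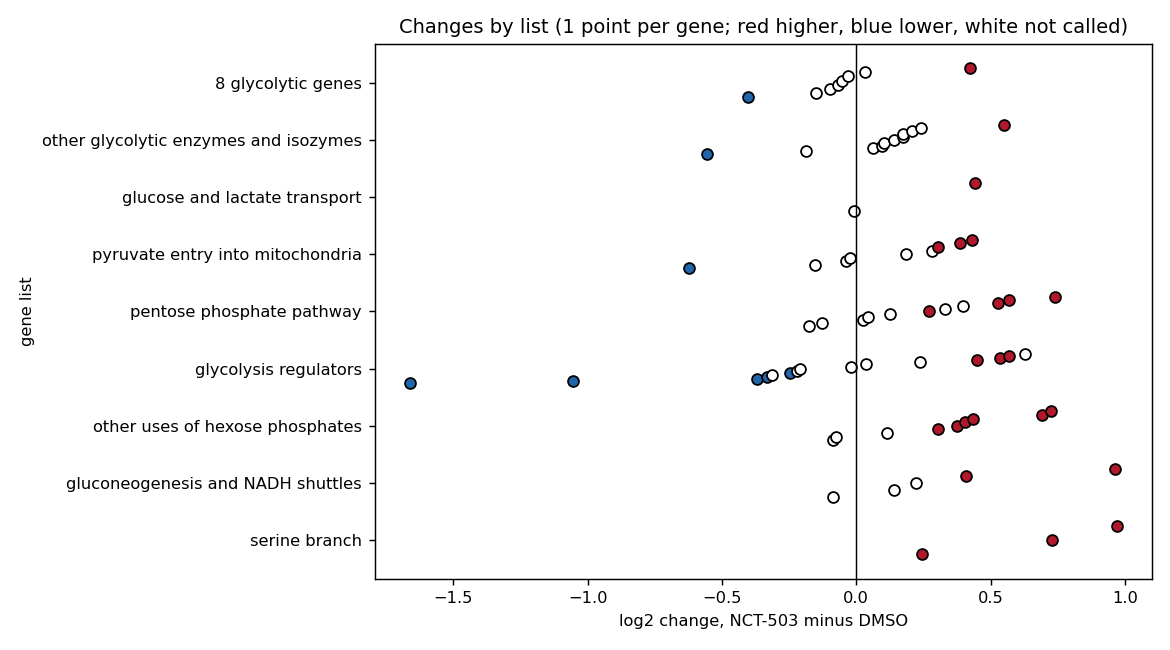
Log2 change, NCT-503 minus DMSO (x axis), of each measured gene in the 8 glycolytic genes and 8 related lists (y axis), 1 point per gene, red if called higher, blue if called lower and white if not called. The 8 glycolytic genes hold 1 red and 1 blue point, the other uses of hexose phosphates 6 red of 9, and the pentose phosphate pathway 4 red of 11.

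Over all genes, 2419 were called higher and 2534 lower, so 48.8% of calls were higher, and 60.4% were under 75th percentile centring (3345 higher, 2189 lower). Of 13 sympathetic neuroblast markers 11 were measured, with means from 5.23 (NPY) to 11.69 (STMN2). Of these, 4 were called higher and 4 lower (36.4% each), where 16.4% of all genes were higher and 17.1% lower. CHGA (-1.23 ± 0.09) and CHGB (-1.13 ± 0.08) fell furthest, and NPY (0.80 ± 0.13) and PHOX2A (0.75 ± 0.09) rose furthest. Measured Schwann (3 of 5) and endothelial (2 of 4) markers had means of at most 4.55 and 3.69 and none was called. Of the fibroblast markers, DCN, LUM and THY1 were measured (3 of 7). Their average level ranged from 6.14 to 6.18 in DMSO and from 5.74 to 5.89 with NCT-503. Of the 3, 2 were called lower, beside 17.1% of all genes. Of the leukocyte markers, CD68, LYZ and TYROBP were measured (3 of 6). Their average level ranged from 3.85 to 4.25 in DMSO and from 4.81 to 5.10 with NCT-503. CD68, a lysosomal protein, was the 1 gene called (2.25 ± 0.10), beside 16.4% of all genes called higher. The changes of LYZ (0.09) and TYROBP (0.32) were smaller and not called. Their means, 2.80 and 3.34, lay below the array medians of 4.30 to 4.33, so these 2 rows say little. The part of either list in the hexokinase changes was not tested.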

How the data were processed

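Total RNA was hybridised to single-colour Affymetrix arrays, per the labels' protocols. Per the submitters' processing notes, Partek was the authors' software. Its version, background correction and normalization were not given in the sources used here. Values as deposited were read as log2, from their range of 0.578 to 13.6 and array medians near 4.3.

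Of 31135 rows, 15098 had 1 gene symbol and none several; each Entrez identifier was found in the reference table. Genes with several rows kept the row with the highest mean. The 14779 genes were fitted with limma 3.58.1 in R 4.3.3 (lmFit, eBayes without trend, no covariates), two-sided, with Benjamini-Hochberg adjustment. The fit was run on simulated data as a check of the code, which does not show how well changes of the hexokinases' size are found.

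Genes and lists were chosen with earlier results of these data known. The 8 genes are always named, as are up to 4 called genes per list with the largest absolute change, every gene of lists with 5 or fewer measured, and the 3 nearest profiles. HK3, HKDC1, EGLN1, TKTL1, TKTL2, VDAC1, VDAC3 and the cell type markers were named after their values were seen. Coordinates are given for RefSeq start-site windows (GRCh38.p14) alone, not for array rows, whose build is not known here. Alternatives were other eBayes settings, a replicate block, no moderation, array weights, 3 scalings, 2 filters, other rows, an adjusted p under 0.01 and leaving out each array.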

Additional observations from a re-analysis of the deposited data

How the results depend on the processing

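HK1 kept its direction and its call in all 18 alternative fits run at 0.05 (changes from 0.36 to 0.49, adjusted p from 0.000649 to 0.0418). HK2 kept its direction in all 18 and lost its call without moderation (change -0.40, adjusted p = 0.0523) and without either of 2 NCT-503 arrays, with changes from -0.46 to -0.32 when 1 array was left out. At an adjusted p under 0.01 there were 0 genes called higher and 0 lower among the 8, by limma, and 1 higher and 1 lower at an unadjusted p under 0.05. Over all 14779 genes the counts were 1226 and 1682 at the first threshold and 3427 and 3047 at the second. The count called lower was 2, with GPI added, under trend, trend with robust settings and quantile normalization; it was 0 without moderation and ranged from 0 to 1 with arrays left out. GPI changed by -0.15 with either trend setting, by -0.30 after quantile normalization, and by -0.11 and -0.080 with median and 75th percentile centring. Signs turned for genes that were not called: TPI1 was at 0.00076 with 75th percentile centring and 0.015 after quantile normalization, GAPDH at 0.017 and 0.040, and LDHB at 0.012 and 0.039 with median and 75th percentile centring. With arrays left out, LDHA ran from -0.011 to 0.077 and LDHB from -0.064 to 0.00040. The HK1 minus HK2 shift lay between 0.74 and 0.89 in its 10 alternatives. Among these, both centrings and the mean of all rows could not change it, and gave the same 0.83. The exact permutation test cannot go below 0.1 in this design and says nothing about stability. The cause of these shifts was not tested.

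No pairing of arrays by the letters a, b and c was seen in the values. Same-letter deviations from the group means correlated at 0.0026 to 0.037 across genes, and different-letter ones at -0.033 to 0.028. This cannot show whether samples with the same letter were handled together. With the replicate block, HK1 changed by 0.43 (adjusted p = 0.0215) and HK2 by -0.40 (0.0217), and no call among the 8 genes changed. LDHA was removed by the filter at the 50th percentile. Signal over background was not available from these values.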
